A study of Drosophila melanogaster with 6 samples.

Results

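Voltage-gated, potassium and transient receptor potential (TRP) ion channel genes were followed across sorted cells of the fruit fly Drosophila melanogaster. The set was a list of 36 channel genes and channel subunits, matched by current gene symbol to probe sets that the array annotation assigns to a single gene. It found 34 of the 36, out of 10844 genes on the array. KCNQ and Trpml had no probe set of their own name alone and were not analysed here. Each gene was represented by whichever of its probe sets had the highest mean across all 6 arrays, and 18 of the 34 genes had further probe sets. All cells carried dsRed1, a red fluorescent protein, under a 2.1 kb promoter of Gad1, the glutamic acid decarboxylase gene that marks GABA neurons. The EC_pos group was the fluorescent fraction of cultured embryonic cells, with 4 arrays, a to d. LB_pos was the fluorescent fraction of larval brain with ventral nerve cord, and LB_neg the non-fluorescent fraction of that tissue, with 1 array each and no replicates. The reporter is read as fluorescence of a promoter fragment, so each fraction is defined by the sort and not by Gad1 RNA. The labels used here state no larval age, fly strain, culture time or number of animals, and are silent on whether arrays a to d are separate cultures, so p-values rest on a spread that may be technical.

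Voltage-gated channels open when the membrane depolarizes. Sodium channels carry the upstroke of the action potential, calcium channels admit the calcium that triggers transmitter release and muscle contraction, and potassium channels repolarize the cell and set firing rate. TRP channels are cation channels that in flies serve vision, hearing, temperature sensing and pain. Accessory subunits bring the pore-forming subunits to the membrane and tune their opening.

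EC_pos array a stood apart from the rest of its group. Over 9635 probe sets that passed a brightness filter, Pearson's r of log2 intensity ran from 0.908 to 0.944 among b, c and d, and from 0.588 to 0.707 between a and each of them. The ratio of 3' to 5' control probe sets was 866 for GAPDH, 640.3 for eIF-4a and 148 for actin on array a, and at most 42.4, 120.3 and 72.5 on the others. The larval arrays differed too, but not in a single direction. On LB_neg and LB_pos in turn, eIF-4a was at 120.3 and 40.1, GAPDH at 19.5 and 8.9, and actin at 29.5 and 58.3. Calls and counts against EC_pos are therefore repeated on b, c and d where stated. Markers fixed for other cell types also moved with the groups. The summed intensity of 8 muscle markers was 3925 on LB_pos, 5693 on LB_neg, 5138 on EC_pos a and between 17436 and 22068 on the remaining EC_pos arrays. Most of the larval sums was Act87E, at 4994 on LB_neg and 2818 on LB_pos, against 1019 on EC_pos a. The other 7 were lower on both larval arrays than on every EC_pos array. Of the 8, 5 were brighter on LB_pos than on LB_neg. The summed intensity of 9 neuroblast and dividing-cell markers was 15346 on LB_neg, 7666 on LB_pos and between 3081 and 4471 on EC_pos. That of 7 neuron markers was 8524 on LB_neg, 6709 on LB_pos and between 1181 and 3502 on EC_pos. The higher LB_neg sum came from the RNA-binding proteins elav (4939.9 on LB_neg, 1541 on LB_pos) and fne (1900.4, 1315). Rbp9 (39.7, 37.9) and onecut (46.7, 19.9), dim on both larval arrays, were also brighter on LB_neg. The markers nSyb (463, 1127), futsch (1012, 2511) and brp (122, 158) were brighter on LB_pos. On LB_neg brp lay below the brightest non-fly control. On EC_pos, elav was at 59.8 on a and between 299.6 and 665 on the rest. The 5 epidermis and trachea markers summed to 2109 on EC_pos a, between 9563 and 18836 on its 3 companions, 959.5 on LB_neg and 2371 on LB_pos. The 6 hemocyte markers summed to 3157 on EC_pos a, between 512 and 609.6 on its companions, 1766 on LB_neg and 859 on LB_pos. Gad1 itself was between 22.2 and 39.0 on EC_pos, 22.0 on LB_neg and 54.8 on LB_pos. Each value lay below the brightest non-fly control probe set of its array. The other GABA neuron markers did not share a direction. Larval signal for VGAT hardly differed by fraction (LB_pos 737.7, LB_neg 739.7), with 408.7 to 967 across EC_pos. Gabat favoured LB_pos (1735.7, against 576.4 for LB_neg), with 439.2 to 1112.6 across EC_pos. Gat exceeded the brightest non-fly control only on EC_pos a, at 235.7. No marker was at 0 on any array. The part of these other cell types in the channel values was not tested, and fewer cells of a type cannot be told apart from less RNA per cell.

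Channel genes included a brighter group and a group that was dim on every array. Of the 34 genes, 23 exceeded 197.35, the median of all intensities, on at least 1 array and entered the tests. The 11 others were para, na, cac, stj, eag, Irk3, Ork1, trp, trpl, iav and nan. Of all 10844 genes, 7892 exceeded 197.35 on at least 1 array. As a gauge of background, 23 control probe sets for bacterial, yeast and mouse sequences reached at most 204 on EC_pos a and between 76.6 and 137 on the other arrays. By that gauge 25 channel genes exceeded the brightest such control of the same array on at least 1 array, and 8 did so on all 6 arrays: NaCP60E, Ca-alpha1D, Ca-beta, Sh, Shal, sei, pain and ClC-a. LB_pos had 21 channel genes above its brightest control and LB_neg 15, against 13, 20, 20 and 18 on EC_pos a, b, c and d. Of all 10844 genes, 8893 exceeded the brightest control on at least 1 array and 4495 on all 6. By array these were 7057 on LB_pos, 6628 on LB_neg and 5671, 7763, 7586 and 7091 on EC_pos a, b, c and d. The plot of intensity on each array shows the channel genes one by one.

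**Figure D1:**
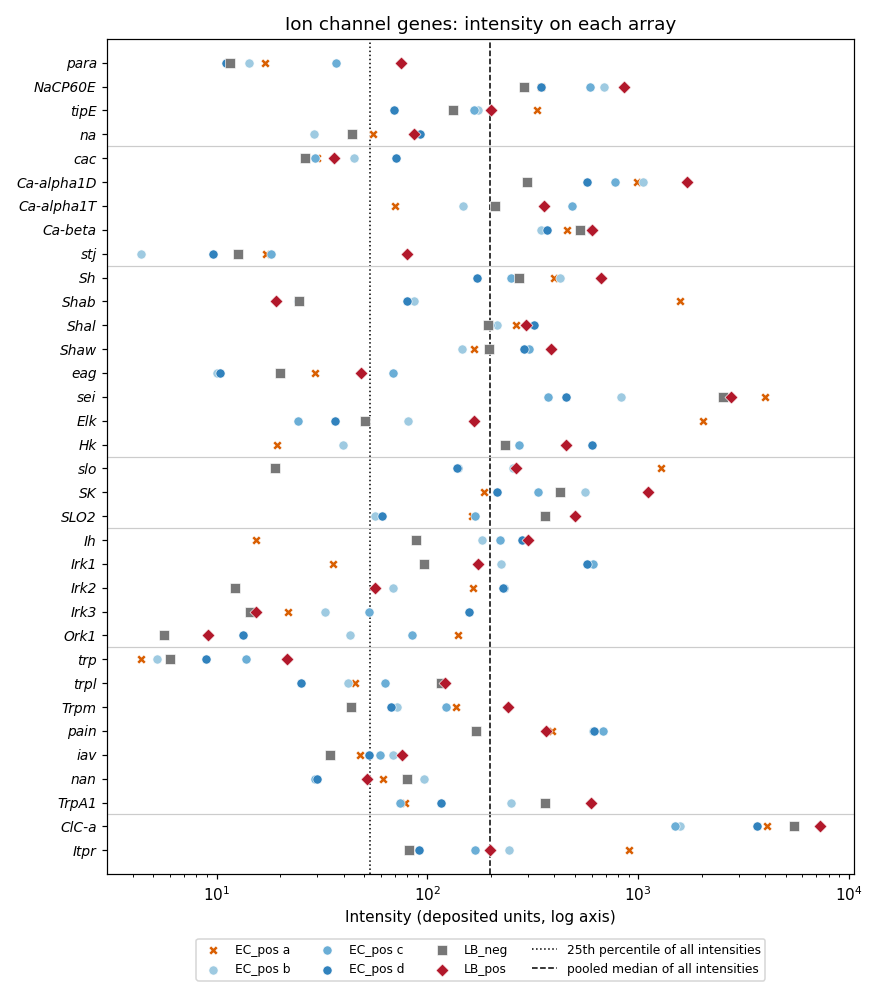
Intensity of 34 ion channel genes on each of the 6 arrays, on a log axis in deposited units, with genes in rows ordered by role (sodium, calcium, voltage-gated potassium, calcium- or sodium-activated potassium, inward rectifier and leak, TRP, other). Each symbol is 1 array, and the lines mark 53.6, the 25th percentile of all intensities, and 197.35, their median. LB_pos is the brightest array for 16 genes, against 23.6% of all genes, and LB_neg for 0, against 18.1%.

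The larval fractions were compared to see how channel genes differ between reporter-positive and reporter-negative cells of the same tissue. Channel genes were brighter on LB_pos nearly throughout: 32 of 34 lay above LB_neg, against 59.6% of all genes. The exceptions were the delayed rectifier Shab and the hearing channel nan. On the scale of log2(intensity + 53.6), where 53.6 is the 25th percentile of all intensities, 9 channel genes were higher on LB_pos by at least 1 unit, against 10.8% of all genes, and 0 were lower by that much, against 5.90%. The median difference was 0.62 over the 34 channel genes and 0.14 over all 10844 genes. The LB_pos array had the highest median intensity of the 6 arrays, 229.4 against 181.5 on LB_neg, and its hybridization controls had a geometric mean of 7382, against 2527 on LB_neg and between 1269.7 and 3739 on EC_pos. The part of this in the larval differences was not tested beyond the scalings given here. Dim genes as a class were raised on LB_pos: 71.5% of the 2952 genes below the filter were above 0, and 10 of the 11 dim channel genes were, with medians of 0.20 and 0.33. Among the 23 that passed the brightness filter, 8 were higher by at least 1 unit, against 11.0% of genes that passed it, and 0 lower, against 7.64%. Among the 8, Trpm passed the filter only through LB_pos, so the count over filtered genes is a description. This scale understates the change of dim genes. Scaling moved the baseline: after quantile normalization 28 channel genes were above 0 (median 0.46, all genes -0.02), and with the arrays set to a common median 28 were above 0 (median 0.36, all genes -0.07). Beside Shab and nan, those not above 0 were cac, Irk3, Ork1 and trpl under the former and Ca-beta, sei, Irk3 and trpl under the latter.

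The larval differences were set against the spread of the EC_pos arrays, since neither larval group had a replicate. The difference was positive and larger than the whole range of the 4 EC_pos arrays for 9 channel genes (para, NaCP60E, Ca-alpha1D, stj, Sh, Trpm, pain, trp and iav), against 12.9% of all genes, and negative by as much for 0, against 6.59%. Of these 9, only NaCP60E, Ca-alpha1D, Sh, Trpm and pain passed the brightness filter. Against the range of b, c and d alone the positive count was 13, against 24.6% of all genes. In limma with the spread taken from EC_pos, 0 channel genes were called between the larval arrays at an adjusted p under 0.05, with 1 at an unadjusted p under 0.05, where 306 of 9635 probe sets were. Without array a these counts were 0 and 5 channel genes, where 23 probe sets were called and 1170.0 were under 0.05 unadjusted. The list was chosen with earlier results known, among them a larval rise of ion channel genes, so its direction is not independent evidence.

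**Figure D2:**
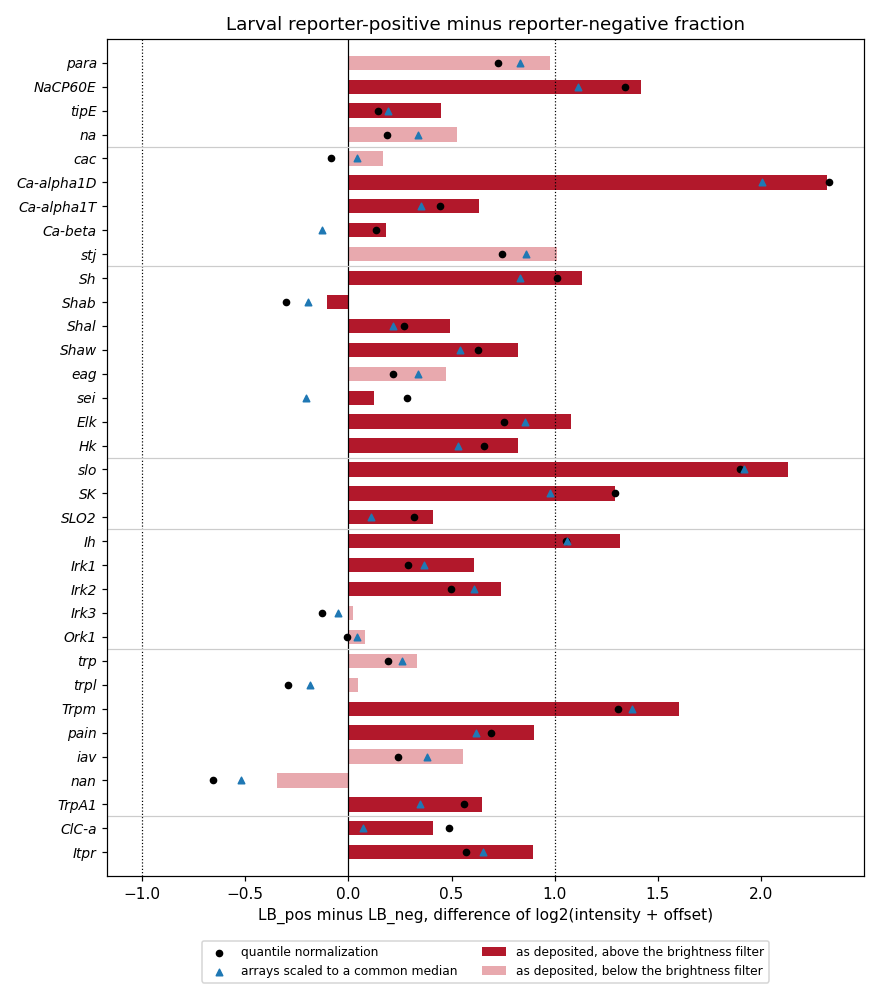
Difference between the larval fractions for each of 34 ion channel genes, as LB_pos minus LB_neg on the scale of log2(intensity + 53.6). Bars show the deposited values, dots and triangles the same difference under quantile normalization or a common median, and dotted lines mark 1 unit in each direction. Ca-alpha1D (2.32), slo (2.13), Trpm (1.60), NaCP60E (1.42) and Ih (1.32), with bars at the values given, are the genes beyond 1 unit by all 3 measures shown. For slo, Trpm and Ih the LB_neg value lay below the brightest non-fly control of that array, so their differences depend on the offset.

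**Figure D3:**
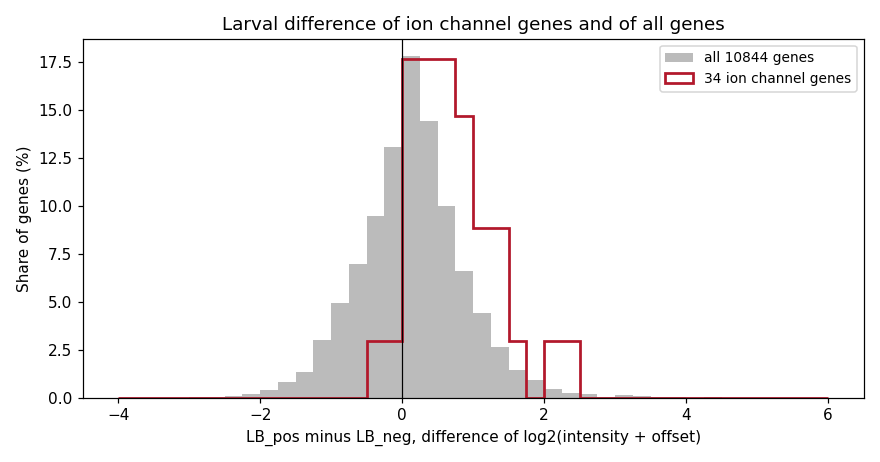
Share of genes, in percent, by the difference LB_pos minus LB_neg on the scale of log2(intensity + 53.6), in bins of 0.25. The filled histogram holds all 10844 genes and the outline the 34 ion channel genes, of which 32 lie above 0.

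Sodium channel genes were represented by para, the voltage-gated sodium channel of fly neurons, by its relative NaCP60E, by the accessory subunit tipE, which raises sodium current, and by na, the sodium leak channel that keeps clock neurons excitable. NaCP60E was at 347, 687, 591 and 345 on EC_pos a to d, and the larval values were 286 on LB_neg and 855 on LB_pos. It was thus lowest on LB_neg and highest on LB_pos, with no overlap between EC_pos and either larval array, and the larval difference was 1.42. The gene's other probe sets, both below the filter, gave 0.27 and -0.17. The para probe set was dim everywhere, at 16.9, 14.2, 36.7 and 11.1 on EC_pos, 11.6 on LB_neg and 74.8 on LB_pos. LB_pos was its brightest array, still below the brightest non-fly control there, so no level of para could be separated from background. For tipE the values were 331, 174, 166 and 69.2 on EC_pos, 133 on LB_neg and 201 on LB_pos, both larval arrays lying inside the EC_pos range. The na probe set stayed between 28.9 and 92.3 on all arrays.

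Among calcium channel genes the L-type channel Ca-alpha1D, which carries calcium current in fly muscle and neurons, stood out between the larval arrays. It was at 989, 1054, 778 and 572 on EC_pos, 298 on LB_neg and 1698 on LB_pos, with a larval difference of 2.32. All 4 EC_pos arrays lay between the larval arrays without overlap. The T-type channel Ca-alpha1T was at 70.1, 148, 487 and 209 on EC_pos, 209.9 on LB_neg and 356 on LB_pos, inside the EC_pos range on both larval arrays. The beta subunit Ca-beta, which helps calcium channels reach the membrane, was between 345 and 599.8 on EC_pos, 527 on LB_neg and 606 on LB_pos. Its larval difference of 0.18 was smaller than the EC_pos range of 0.71. The presynaptic calcium channel cac was dim, between 26.3 and 71.2 on all arrays. Its partner stj, an alpha2delta subunit needed for synapse function, was at 17.1, 4.4, 18.1 and 9.6 on EC_pos, 12.6 on LB_neg and 79.8 on LB_pos, also below the brightest non-fly control of that array.

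Voltage-gated potassium channel genes were Sh, Shab, Shal and Shaw, the founding members of the major families, with Hk, the beta subunit of Sh, and the related channels eag, sei and Elk. The A-type channel Sh was at 396, 426, 250.3 and 171 on EC_pos, 273 on LB_neg and 663 on LB_pos, brightest on LB_pos. Its larval difference was 1.13, and its 3 further probe sets, all above the filter, gave 0.74, 0.10 and 1.40. The last of these passed the filter only through LB_pos. Shaw was at 166, 146, 304 and 288 on EC_pos, 195 on LB_neg and 386 on LB_pos, with a larval difference of 0.82 against an EC_pos range of 0.84. Shal, which carries A-type current in cell bodies and dendrites, was between 197 and 318.5 on EC_pos, 193 on LB_neg and 294 on LB_pos. Its larval difference was 0.49, within the EC_pos range of 0.57. Hk was at 19.4, 39.8, 273 and 606.5 on EC_pos, 233 on LB_neg and 453.5 on LB_pos, with a range over EC_pos of 3.18, wider than the larval difference of 0.82. The eag probe set reached at most 68.5.

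The members sei, Elk and Shab were marked by array a. The erg-type channel sei, named for seizures at high temperature, was at 3986 on EC_pos a and at 827, 373 and 453 on the 3 others, with 2533 on LB_neg and 2767 on LB_pos. Arrays b, c and d lay below both larval arrays and array a above them. Elk was at 2017 on array a, at 80.5, 24.4 and 36.3 on its group's 3 others, and at 50.8 on LB_neg and 167 on LB_pos, with a larval difference of 1.08. The Elk value on LB_neg lay below both the offset and the brightest non-fly control there, so this difference depends on the offset. Shab was at 1582 on array a, 86.8, 24.2 and 80.2 on the rest of EC_pos, 19.2 on LB_pos and 24.6 on LB_neg. Elk and Shab exceeded the pooled median, and so passed the filter, only on array a.

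Calcium- and sodium-activated potassium channels, which link ion entry to repolarization, were all brighter on LB_pos than on LB_neg. The large-conductance channel slo was at 1288, 256, 139 and 138 on EC_pos, 18.9 on LB_neg and 263 on LB_pos. LB_neg was below every EC_pos array, LB_pos was inside their range, and the larval difference was 2.13. The LB_neg value lay below both the offset and the brightest non-fly control of that array, so this difference depends on the offset and is no measured fold. The small-conductance channel SK was at 185, 561, 334.5 and 214 on EC_pos, 423.5 on LB_neg and 1116 on LB_pos, with a larval difference of 1.29. LB_pos was the brightest array for SK, although the 4 further probe sets gave larval differences from -0.30 to 1.20. SLO2 was at 163, 56.7, 167 and 60.9 on EC_pos, 362 on LB_neg and 498.5 on LB_pos, both larval arrays above all of EC_pos. Its larval difference was 0.41. Its other probe set above the filter gave 44.5, 43.9, 75.2 and 168.4 on EC_pos, 73.7 on LB_neg and 333 on LB_pos, so there the larval difference was larger, 1.60, and LB_neg lay inside the EC_pos range. That probe set passed the filter only through LB_pos.

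Among channels that act near rest, Ih, the hyperpolarization-activated cation channel, was at 15.4, 181, 220.0 and 279.7 on EC_pos, 88.0 on LB_neg and 299 on LB_pos. Its larval difference was 1.32, and LB_neg lay below b, c and d. The Ih value on LB_neg was also below the brightest non-fly control of that array, so this difference depends on the offset. The inward rectifiers hold the resting potential. Irk1 was at 35.6, 223, 609 and 572 on EC_pos, 96.0 on LB_neg and 175 on LB_pos. Irk2 was at 164, 68.8, 229.9 and 228 on EC_pos, 12.2 on LB_neg and 56.3 on LB_pos. Only its values on EC_pos c and d exceeded the brightest non-fly control of their array. Both larval arrays lay below all of EC_pos. A further Irk2 probe set, dim on every array, did not show this, at 74.0, 6.6, 28.2 and 23.2 on EC_pos, 27.5 on LB_neg and 22.0 on LB_pos. Irk3, between 21.9 and 157.5 on EC_pos, was at 15.4 on LB_pos and 14.4 on LB_neg. The potassium leak channel Ork1, between 13.3 and 140.0 on EC_pos, was at 9.1 on LB_pos and 5.6 on LB_neg. Irk3 and Ork1 were too dim to test.

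Among TRP channel genes, those of vision and hearing were dim and the others passed the filter. The photoreceptor channels trp and trpl were dim on all arrays, trp at most at 21.5 and trpl at most at 121, and the 9 photoreceptor markers found summed to 1890 on LB_neg and 2494 on LB_pos. The hearing channels iav and nan were also dim, between 34.5 and 75.7 and between 29.4 and 96.8. Trpm, a cation channel with a role in ion homeostasis, was at 136, 71.9, 122 and 67.0 on EC_pos, 43.4 on LB_neg and 241 on LB_pos. It was lowest on LB_neg and highest on LB_pos without overlap with EC_pos, a larval difference of 1.60. Its LB_neg value lay below both the offset and the brightest non-fly control there, so this difference depends on the offset. The other Trpm probe set, below the filter, gave 0.31. The nociception channel pain was at 390.0, 611, 683 and 615 on EC_pos, 170.1 on LB_neg and 364 on LB_pos, both larval arrays below all of EC_pos. TrpA1, a sensor of heat and irritants, was at 77.9, 249, 73.8 and 115.5 on EC_pos, 359 on LB_neg and 594 on LB_pos, both larval arrays above all of EC_pos. A further TrpA1 probe set, dim on every array, did not show this. It was at 93.1, 32.1, 15.9 and 18.5 on EC_pos, 3.9 on LB_neg and 19.0 on LB_pos.

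Outside these classes, the chloride channel ClC-a, known from glia and epithelia, was at 4089, 1583, 1492.5 and 3651 on EC_pos, 5474 on LB_neg and 7282 on LB_pos. Both larval arrays were brighter than every EC_pos array. A further ClC-a probe set above the filter ran opposite to this, at 212, 157, 243 and 202.5 on EC_pos, 49.0 on LB_neg and 118 on LB_pos, so the direction of ClC-a between culture and larva depended on the probe set. Itpr, the inositol trisphosphate receptor that releases calcium from the endoplasmic reticulum, was at 900.0, 244, 167 and 90.8 on EC_pos, 81.6 on LB_neg and 198 on LB_pos.

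The culture was then compared with each larval fraction to see how channel genes of reporter-positive embryonic cells differ from those of larval cells. Origin and culture differ together, so their effects cannot be told apart, and both contrasts share the EC_pos arrays. LB_pos was above all 4 EC_pos arrays for 16 of 34 channel genes, against 33.6% of all genes, and below all of them for 5, against 17.2%. LB_neg was below all 4 for 12, against 24.4% of all genes, and above all 4 for 4, against 26.0%. The median of EC_pos minus LB_pos over the 34 genes was -0.39, against -0.18 over all genes, and that of EC_pos minus LB_neg was 0.25, against 0.0064. With b, c and d alone these medians were -0.47, against -0.21, and 0.22, against -0.031. Across all 6 arrays LB_pos was brightest for 16 channel genes, against 23.6% of all genes, and LB_neg was dimmest for 12, against 20.0%. Without array a, LB_pos was above b, c and d for 20 channel genes, against 44.9% of all genes, and LB_neg was below them for 14, against 31.2%.

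With all 4 EC_pos arrays, 0 of the 23 tested channel genes differed from either larval array in limma, at a Benjamini-Hochberg adjusted p under 0.05. Over all probe sets 0.0311% were called against LB_pos and 0.540% against LB_neg. At an unadjusted p under 0.05 there were 3 channel genes in each contrast, beside 1301 of 9635 probe sets against LB_pos and 1673 against LB_neg, so their share was no higher than that of all probe sets. Against LB_pos these were SK (-1.74 ± 0.63, SE, limma adjusted p = 0.335), SLO2 (-1.82 ± 0.62, adjusted p = 0.306) and TrpA1 (-1.92 ± 0.63, adjusted p = 0.299), with all 4 EC_pos arrays below LB_pos for each. Against LB_neg they were Ca-alpha1D (1.33 ± 0.53, adjusted p = 0.265), Irk2 (1.71 ± 0.65, adjusted p = 0.249) and pain (1.46 ± 0.50, adjusted p = 0.205), with all 4 arrays above LB_neg. For Irk2, the values on LB_neg and on EC_pos a and b lay below the brightest non-fly control of their array. This fit gives each larval group, with its 1 array, the spread of EC_pos.

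Without array a, limma called 3 channel genes against LB_pos, all lower in EC_pos, where 14.1% of all probe sets were called, 5.49% as lower and 8.61% as higher. These were sei (-2.29 ± 0.45, adjusted p = 0.0138), SLO2 (-1.97 ± 0.53, adjusted p = 0.0428) and ClC-a (-1.80 ± 0.49, adjusted p = 0.0462). Against LB_neg it also called 3, where 23.2% of all probe sets were called. The potassium channel slo (1.64 ± 0.49, adjusted p = 0.0434) and pain (1.62 ± 0.37, adjusted p = 0.0161) were higher in EC_pos, as were 12.6% of all probe sets, and sei (-2.17 ± 0.45, adjusted p = 0.0112) was lower, as were 10.6%. Counted over both directions together, the share of channel genes called, 3 of 23 in each contrast, was no higher than the share of all probe sets called. Without b, c or d in turn, 0 channel genes and 0 probe sets of any kind were called in either contrast. At an unadjusted p under 0.05, between 780.0 and 866 of 9635 probe sets passed against LB_pos and between 1149 and 1216 against LB_neg.

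**Figure D4:**
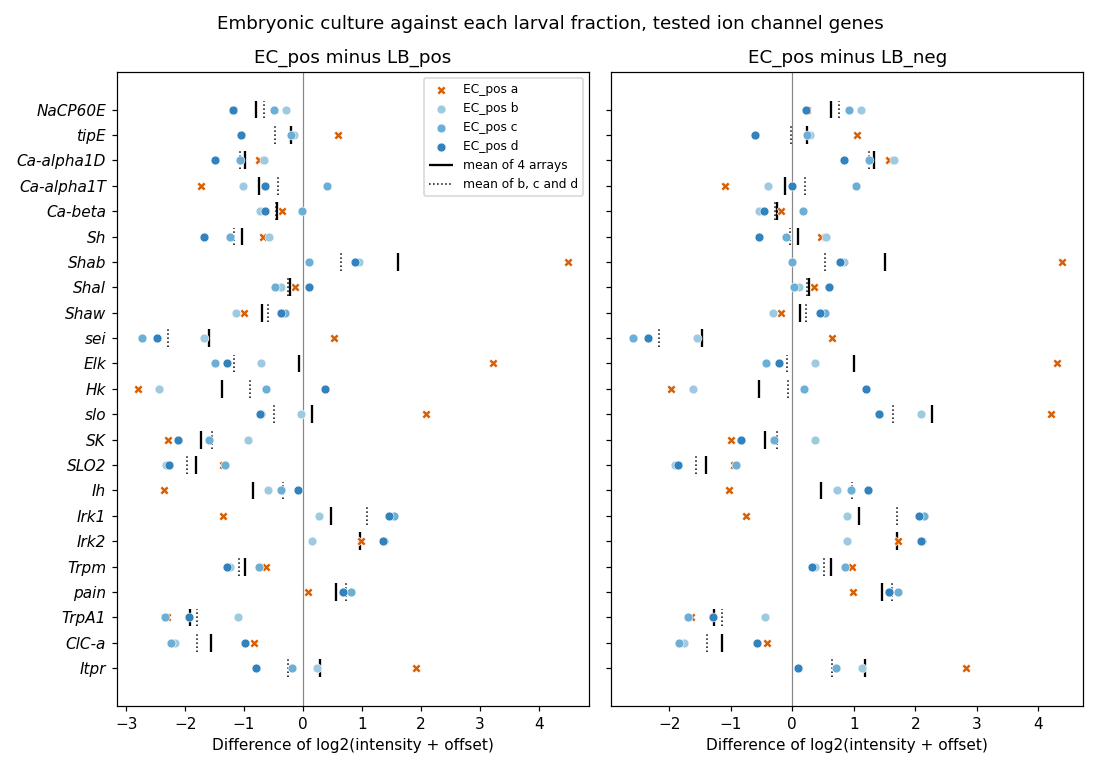
Difference of each EC_pos array from LB_pos (left) and from LB_neg (right) for the 23 tested ion channel genes, on the scale of log2(intensity + 53.6). Symbols are the 4 EC_pos arrays, the solid tick is their mean and the dotted tick the mean of b, c and d. Array a lies far from the rest for Shab, sei, Elk, slo and Itpr on the bright side and for Irk1 and Ih on the dim side.

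Channel genes varied within EC_pos about as much as other genes when array a was included. The median range over the 4 arrays was 1.05 log2 units for the 34 channel genes and 1.05 for all genes, and over b, c and d it was 0.85 and 0.59. Array a was at least 1 unit above the mean of b, c and d for 7 channel genes, against 16.1% of all genes, and at least 1 unit below it for 4, against 16.3%. The bright ones were Elk (4.40), Shab (3.85), sei (2.81), slo (2.57), Itpr (2.17), tipE (1.07) and Ork1 (1.01). The dim ones were Irk1 (-2.45), Ih (-2.01), Hk (-1.90) and Ca-alpha1T (-1.31). Among b, c and d the widest range was that of Hk, 2.82, with 39.8, 273 and 606.5.

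Further probe sets of the same genes mostly shared the larval direction. Of 29 such probe sets, 24 were brighter on LB_pos than on LB_neg, against 59.6% of all genes. Most of the 29 were below the filter, and of all genes below it 71.5% were brighter on LB_pos. Of the 8 that passed the filter, belonging to Ca-beta, Sh, SK, SLO2 and ClC-a, 7 had the sign of the leading probe set between the larval arrays and 7 had it for EC_pos minus LB_pos. For EC_pos minus LB_neg only 2 of 8 had the same sign. The probe sets of Ca-beta, Sh and SLO2 at 214.9, 310 and 332.6 on LB_pos passed the filter only there. Their signs between the larval arrays and for EC_pos minus LB_pos were thus set by the filter.

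Other genes of ion transport were taken from a pair of lists. Of 56 further channel subunits found on the array, 38 were brighter on LB_pos than on LB_neg, 13 of them by at least 1 unit, 2 were lower by that much, and the median difference was 0.42. Of 30 accessory, clustering and ion-gradient genes, 18 were brighter, 8 by at least 1 unit, 2 were lower by that much, and the median was 0.30. Over all genes 59.6% were brighter on LB_pos, 10.8% by at least 1 unit, 5.90% were lower by that much, and the median was 0.14. The share of accessory genes that were brighter, 60%, was thus near that of all genes. With all arrays limma called 0 of the 33 and 25 tested members of these lists in either contrast. Without array a it called, among the further channels, 1 higher and 1 lower in EC_pos against LB_pos and 5 higher and 1 lower against LB_neg. Among the accessory genes these counts were 2 and 2 against LB_pos and 5 and 2 against LB_neg. Over all probe sets the called shares were 8.61% higher and 5.49% lower against LB_pos, and 12.6% and 10.6% against LB_neg.

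The largest larval differences among the further channels that passed the filter were those of the calcium release channel RyR (19.1 on LB_neg and 912 on LB_pos, a difference of 3.73) and of the cyclic nucleotide-gated channel genes Cngl (24.3 and 375, 2.46) and CngB (218 and 1157, 2.16). The sodium channels of the ppk family ppk17 (23.5 and 227, 1.86) and ppk15 (52.9 and 253, 1.53) followed, with the chloride channel ClC-b lower on LB_pos (1987 and 679.8, -1.48). Among the accessory genes, unc79 (182 and 2489, 3.43) and unc80 (60.7 and 564, 2.43), both partners of the sodium leak channel na, stood beside the sodium-calcium-potassium exchanger Nckx30C (547 and 6859.5, 3.53) and the potassium-chloride cotransporter kcc (73.6 and 549.5, 2.25). CG5890, a calcium-binding protein related to potassium channel partners, had 95.9 and 447 (1.74). The scaffold dlg1, which clusters Sh, was at 208 and 34.3 (-1.57). Cngl and ppk15 passed the filter only through LB_pos and dlg1 only through LB_neg, so their direction was set by the filter. For RyR, Cngl, ppk17, ppk15, unc80, kcc and CG5890 the LB_neg value lay below the brightest non-fly control there, and for dlg1 the LB_pos value did, so their differences and order depend on the offset. On EC_pos unc79 was between 438 and 739, RyR between 344.5 and 710.2, and Nckx30C between 459.6 and 987.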

How the data were processed

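RNA of 6 samples was measured on one-colour arrays, and samples were grouped by title. The values deposited by the authors are linear intensities. The deposited values show that each array had been scaled so that its mean, after trimming 2% of probe sets at each end, is near 500.1. Array software is not named in the sources used here. No further scaling was applied, and tests omitted the 44 control probe sets.

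Genes were named from the platform annotation, with symbols updated through gene identifiers of RefSeq (12394 of 12443 probe sets with a single gene). Intensities were transformed as log2(intensity + 53.6). Probe sets above 197.35 on at least 1 array, 9635 of 13966, were tested with limma 3.58.1 in R 4.3.3 (3 group means, eBayes with trend, two-sided, Benjamini-Hochberg over all tested probe sets, calls at 0.05). The residual degrees of freedom, 3, came from EC_pos. The procedure was tested on simulated data. The number of arrays limits the precision.

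All 34 genes found were named. From the further lists, genes called with all arrays and the 6 largest larval differences per list were named. Members, lists and tests were chosen with earlier results of these data known. Alternatives were other offsets, filters, scalings and variance priors, averaged probe sets and leaving out each EC_pos array. The counts of genes beyond arrays b, c and d were added after seeing the data.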

Additional observations from a re-analysis of the deposited data

Results flagged for a closer look

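EC_pos array a was far from the rest of its group for Elk, at 2017 against values between 24.4 and 80.5 on b, c and d. Its gap to the nearest array took up 0.835 of the group's range on the log2 scale, above Dixon's critical value of 0.829 for 4 samples. Among 34 channel genes this was the 1 such gap, while 9.63% of all 10844 genes had one, and chance flags about 1 in 20 groups.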

How the results depend on the processing

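Of the 34 channel genes, 26 were brighter on LB_pos than on LB_neg as deposited and under 5 alternatives (both offsets, both scalings and averaged probe sets). Over all genes the share brighter was 59.6% as deposited, 48.7% after quantile normalization and 44.6% under a common median. The share of all genes brighter under all 5 was not counted. Only Ca-alpha1D (1.94 to 2.44) and slo (1.09 to 2.88) stayed at least 1 unit higher as deposited and under all 5. Of the 34 genes 16, these among them, have 1 probe set, so averaging could not change them. NaCP60E fell below 1 unit only with averaged probe sets, at 0.505. Of Ca-alpha1D and slo, the larger was Ca-alpha1D as deposited and slo with the low offset, and slo was at background on LB_neg. Over the 23 tested genes the median larval difference was 0.82, and 0.51 with the offset at the 50th percentile, 0.57 under quantile normalization and 0.54 under a common median. The count of tested genes at least 1 unit higher was 8, and 4 with the high offset, 5 with a common median and 3 with averaged probe sets, where only 13 channel genes passed the filter (over all 34, 5 against 9). The median of EC_pos minus LB_pos was -0.75, and -0.48 with the high offset, -0.39 without a filter and -0.37 with averaged probe sets, over those 13 genes. Against LB_pos 3 probe sets were called, and 12 with the offset at the 10th percentile, 0 with that at the 50th, 6 without a filter and 7 after quantile normalization. Leaving out 1 EC_pos array gave 0 to 1359, the highest without a. Against LB_neg 52 were called, 161 with the low offset, 7 with the high offset, and 0 to 2231 with 1 array left out. Channel genes called lay between 0 and 3 in both contrasts, with 3 only without a.

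Uncalled differences of 8 genes changed sign under some alternative, and the ranges that follow are over leaving out each EC_pos array in turn. Against LB_pos, slo ran from -0.49 (without a) to 0.44, Itpr from -0.25 (without a) to 0.66, Elk from -1.17 (without a) to 0.41, at 0.15 without b and 0.34 without d, and tipE from -0.47 (without a) to 0.076 (without d). Elk was also at 0.21 with the high offset and at 0.12 under both scalings, and tipE at 0.018 under quantile normalization. Against LB_neg, Sh ran from -0.061 (without b) to 0.30, with -0.030 without a, Elk from -0.092 (without a) to 1.49, Ca-alpha1T from -0.50 to 0.21 (without a), tipE from -0.024 (without a) to 0.53 and Shaw from -0.013 (without c) to 0.27. With averaged probe sets Sh was at -0.13 and ClC-a at 0.10. The cause was not tested beyond the array left out. No paired analysis was possible because the groups share only the letter a.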
